A study of Mus musculus with 14 samples.

Results

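The genes described here are 9 purinergic receptors of glia and macrophages, *P2rx4*, *P2rx5*, *P2rx7*, *P2ry1*, *P2ry2*, *P2ry6*, *P2ry12*, *P2ry13*, and *P2ry14*. They were chosen by gene symbol from the 24062 genes of a bulk RNA-seq count table, and all 9 were found. Extracellular ATP, ADP, UTP, UDP, and UDP-sugars act on these receptors as signals between cells. P2X receptors are ion channels that ATP opens, and P2Y receptors are G protein-coupled receptors that raise intracellular calcium or lower cAMP, depending on the subtype. In nerve, Schwann cells, satellite glia, sensory neurons, and resident macrophages all carry some of them, and ATP released from damaged or stimulated axons is a known activator.

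RNA was measured in whole tissue from 14 libraries. The control group (n = 3) was dorsal root ganglion (DRG) with nerve from mice labelled Nf1fl/fl, which carry the floxed *Nf1* alleles without Cre in their label. The plexiform neurofibromas (PNs, n = 11) came from DhhCre;Nf1fl/fl mice, in which the *Dhh* promoter drives Cre in the Schwann cell lineage, so that other cells of the tumor keep *Nf1*. The background was given as mixed C57BL/6, I-129, and FVBN for all mice, while the methods of the study describe the DhhCre;Nf1fl/fl mice as largely C57BL/6. All mice were untreated and were 9 months old by the methods for these libraries, while a legend of the study gives a younger age. Growth was read by MRI over 2 months. The slow-growing group (n = 5) altered in volume by under 5 mm3, and the fast-growing group (n = 6) gained over 35 mm3. The libraries carry numbers, but the labels do not state that each is a separate animal, so the p-values below measure the spread between these libraries.

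Depth was 9596773 to 17594164 counts on genes per library, and the smallest level that 3 counts can show was 0.167 to 0.313 CPM (counts scaled to a common library size). The ribosomal RNA gene *Rn45s* took 16.2 to 17.6% of the counts in controls, 3.48 to 15.3% in slow-growing PNs, and 7.24 to 18.1% in fast-growing PNs, and the part of this difference in the results was not tested. The floxed gene does not check the labels, because whole-gene counts include exons outside the deleted part and cells without Cre. *Nf1* was at 129 to 227 CPM in controls and 225 to 294 CPM in PNs, and was higher in PNs (log2 fold change 0.54, SE 0.16, adjusted p = 0.0215), a call lost without control 4 (adjusted p = 0.12) or control 5 (adjusted p = 0.163). The controls held the most muscle and fat transcripts, with 10 skeletal muscle markers summing to 3270 to 13340 CPM against 28.3 to 3258 CPM in PNs. A set of 12 fat markers summed to 3686 to 4734 CPM in controls and 32.6 to 2103 CPM in PNs. Fat sums were highest in the controls, intermediate in slow-growing PNs 1198A, 1202, and 1206, and below 250 CPM in the remaining PNs. The 10 neuron markers that define DRG tissue summed to 1602 to 5881 CPM in controls. They ranged from 33.6 CPM in fast-growing PN 1191 to 13860 CPM in slow-growing PN 1203. The 10 Schwann cell markers summed to 3521 to 10370 CPM in controls and 7321 to 16400 CPM in PNs.

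Several receptor genes lie close to each other in the mouse genome (GENCODE M21 on mm10). On chromosome 3, *P2ry14* (chr3:59113855-59153618), *P2ry13* (chr3:59207892-59210882), and *P2ry12* (chr3:59216272-59262871) are transcribed in 1 direction, and all lie within *Med12l* on the opposite strand. *P2ry14* and *P2ry13* are 54.3 kb apart with 1 protein-coding gene between them, and *P2ry13* and *P2ry12* are separated by 5.4 kb. On chromosome 5, *P2rx7* (chr5:122643911-122691432) and *P2rx4* (chr5:122707544-122729738) are 16.1 kb apart, and on chromosome 7, *P2ry6* (chr7:100937630-100974649) and *P2ry2* (chr7:100996568-101012866) are 21.9 kb apart. *P2ry1* (chr3:61002795-61008982) and *P2rx5* (chr11:73160421-73172685) stand alone. Exons shared with an opposite-strand gene were limited to 992 bases of *P2ry1* with *Gm37035* and 9 bases of *P2ry12* with *Med12l*, and *P2rx7* shares 119 exon bases with *Mir8115* on its own strand. The strand setting of the counting is not given in the sources used here, so reads from such stretches could not be assigned to 1 gene. *Med12l* itself did not pass the test in any of the 4 comparisons (adjusted p = 0.285 to 0.715).

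Upstream sequence is shown for *P2rx7*, the largest rise in PNs among the 9 receptors, and for the chromosome 3 neighbours *P2ry12* and *P2ry13*. Levels of this pair ran together across PNs, as did those of *P2rx4* on chromosome 5 with each of them. The bases come from RefSeq promoter windows (GRCm38.p6), which were found for 7 of the 9 genes, and are printed 5′ to 3′ on the gene's strand up to the start of the annotated gene or of its RefSeq transcript. Capitals mark matches on either strand to ACAAAG, a SOX-type core (read as CTTTGT on the opposite strand).
P2rx7 (chr5:122643677-122643910, + strand): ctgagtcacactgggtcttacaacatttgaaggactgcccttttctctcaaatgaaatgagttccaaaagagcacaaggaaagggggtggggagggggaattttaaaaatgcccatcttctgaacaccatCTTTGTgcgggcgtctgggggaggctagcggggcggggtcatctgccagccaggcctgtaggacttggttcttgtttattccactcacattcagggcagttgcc
P2ry12 (chr3:59262986-59263235, - strand): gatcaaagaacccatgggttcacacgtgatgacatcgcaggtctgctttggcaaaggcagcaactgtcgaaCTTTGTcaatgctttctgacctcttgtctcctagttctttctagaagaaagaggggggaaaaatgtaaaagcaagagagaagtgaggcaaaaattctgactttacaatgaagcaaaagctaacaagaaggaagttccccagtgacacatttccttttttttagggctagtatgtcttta
P2ry13 (chr3:59210883-59211132, - strand): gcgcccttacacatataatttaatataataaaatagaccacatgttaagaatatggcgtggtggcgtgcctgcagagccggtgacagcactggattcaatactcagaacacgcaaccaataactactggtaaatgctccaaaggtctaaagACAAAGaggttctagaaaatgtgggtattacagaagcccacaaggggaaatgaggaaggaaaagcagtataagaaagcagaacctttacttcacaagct
The match began 120 bases before the RefSeq start in *P2rx7*, 179 bases before it in *P2ry12*, and 99 bases before it in *P2ry13*. The 7 receptors had 12 windows, and ACAAAG was found in these 3 and in none of the others. It was found in 18.7% of all 32851 promoter windows of 300 bases. The second letter string searched, GAGGAAGT (a PU.1-type core), was found in 3.2% of them and, among the receptors, only at base 4 after a second start of *P2rx7*. A match of letters is a description of the sequence and not of binding.

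**Figure D1:**
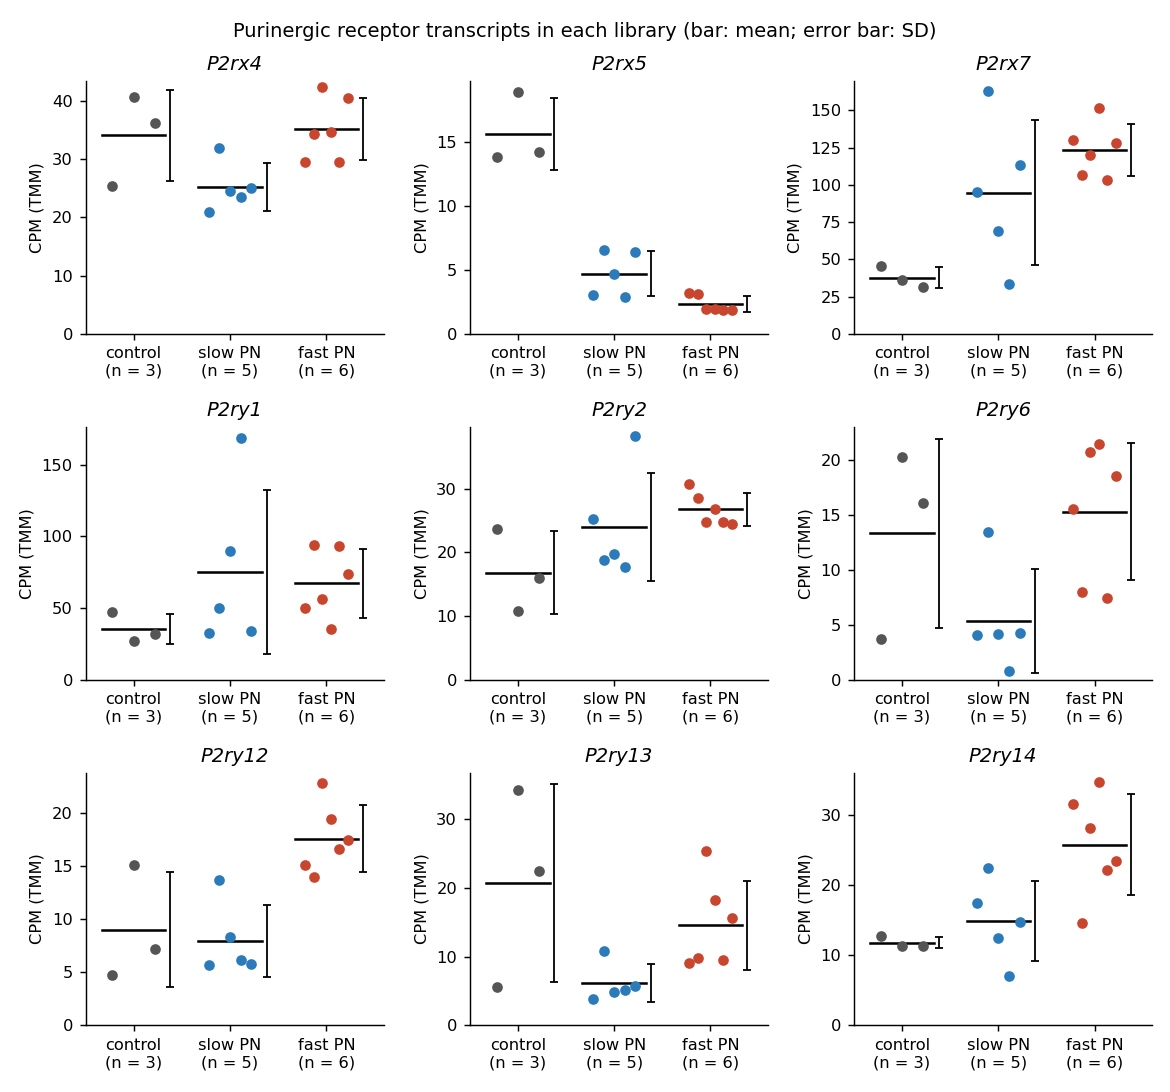
Level of each receptor (y axis, CPM after TMM scaling) in every library of control DRG (grey), slow-growing PNs (blue), and fast-growing PNs (red), with the mean as a horizontal bar and the SD as an error bar. *P2rx5* is highest in the 3 controls (13.8 to 18.9 CPM), and *P2rx7* is above every control in 10 of 11 PNs.

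Per kilobase of exon, no receptor led in all 3 groups. In controls, the levels ran from *P2ry13* (8.22 CPM per kb) and *P2ry1* (8.22 CPM per kb) down to *P2ry14* (1.06 CPM per kb), and only the lowest step, from *P2ry12* to *P2ry14*, exceeded the spread of its ratio over libraries. In fast-growing PNs, *P2rx7* (20.6 CPM per kb) and *P2ry1* (15.6 CPM per kb) stood above the other receptors, and the step from *P2ry1* to *P2ry12* (6.90 CPM per kb) held in 6 of 6 libraries. From *P2ry12* through *P2ry2*, *P2ry13*, and *P2ry6* to *P2rx4* (5.004 CPM per kb), neighbours did not differ beyond their spread. The lowest in this group were *P2ry14* (2.33 CPM per kb) and *P2rx5* (0.964 CPM per kb). In slow-growing PNs, *P2ry1* (17.5 CPM per kb) and *P2rx7* (15.9 CPM per kb) again led, and these did not differ from each other beyond their spread.

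Among the P2X channels, *P2rx7* was higher and *P2rx5* was lower in PNs, and *P2rx4* did not pass the edgeR test in any comparison. *P2rx7* encodes the channel that opens at high ATP and, in macrophages, is known to trigger the NLRP3 inflammasome. It also has a known presence in Schwann cells. *P2rx7* was at 45.2, 36.4, and 31.5 CPM in the 3 controls. It was at 95, 163, 68.7, 33.2, and 113 CPM in slow-growing PNs 1079, 1198A, 1202, 1203, and 1206. In fast-growing PNs it ranged from 104 to 151 CPM, with a median of 124 CPM. All 6 fast-growing PNs were above all controls, and slow-growing PN 1203 was the only PN within the control range. *P2rx7* was 2.89-fold higher in PNs than in controls (log2 fold change 1.53, SE 0.36, adjusted p = 0.00701). It was 3.13-fold higher in fast-growing PNs (1.65, SE 0.17, adjusted p = 0.00015). The slow-growing PNs did not pass the edgeR test (1.28, SE 0.46, adjusted p = 0.108), though DESeq2 and 1 fit of all 3 groups, which called 22.5% and 20.1% of all genes, called *P2rx7* higher in them, and the difference between fast- and slow-growing PNs was 0.38 on the log2 scale (SE 0.32, adjusted p = 0.528). Without control 5, the call for all PNs was lost (adjusted p = 0.0519), and without slow-growing PN 1203, *P2rx7* passed in slow-growing PNs (adjusted p = 0.0194).

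Schwann cell markers rose with *P2rx7*, 6 of 10 being called higher in fast-growing PNs than in controls, where 14.8% of all genes were called higher. As a percent of the summed Schwann cell markers, *P2rx7* was 0.436 to 0.926% in controls, 0.404 to 1.44% in slow-growing PNs, and 0.965 to 1.75% in fast-growing PNs, so the fast-growing PNs stayed above the controls on this ratio. As a percent of the 15 summed macrophage markers it was 4.54 to 18.4% in controls, 22.9 to 55.6% in slow-growing PNs, and 11.5 to 26.8% in fast-growing PNs. On that ratio the slow-growing PNs were all above the controls, and the fast-growing PNs overlapped with them. The part of either cell type in the rise was not tested. In bulk tissue, more cells of a type and more RNA per cell cannot be told apart.

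*P2rx5* encodes an ATP-gated channel that passes small currents and is known from skeletal muscle and as a surface marker of brown fat cells. It was at 13.8, 18.9, and 14.2 CPM in controls, and at 3.04, 6.54, 4.70, 2.84, and 6.36 CPM in slow-growing PNs 1079, 1198A, 1202, 1203, and 1206. In fast-growing PNs it ranged from 1.86 to 3.18 CPM, with a median of 1.93 CPM. All 11 PNs were below all 3 controls. The share of all genes that separate groups in this way was not counted, so such separations are given as values only. *P2rx5* was 4.66-fold lower in PNs (log2 fold change -2.22, SE 0.35, adjusted p = 0.000445). It was 3.46-fold lower in slow-growing PNs (-1.79, SE 0.33, adjusted p = 0.0123) and 7.08-fold lower in fast-growing PNs (-2.82, SE 0.24, adjusted p = 5.27e-05). Between fast- and slow-growing PNs the difference was -1.02 (SE 0.29, adjusted p = 0.0806). The call in slow-growing PNs was lost without control 4 (adjusted p = 0.0641).

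Fat and muscle markers were also lower, in part. In PNs versus controls, 6 of 12 fat markers and 6 of 10 muscle markers were called lower, where 2180 of all 16283 genes were called lower. In slow-growing PNs versus controls these were 3 of 12 and 0 of 10, where 1121 of all 15714 genes were called lower. All 12 fat markers were called lower in fast-growing PNs than in controls, and 9 of 10 muscle markers were called lower, where 16.7% of all genes were called lower. Among slow-growing PNs, the 3 libraries with fat sums of 1503 to 2103 CPM held *P2rx5* at 4.70 to 6.54 CPM, and the 2 with fat sums of 48.7 and 246 CPM held it at 2.84 and 3.04 CPM. The fast-growing PNs did not follow this order, since 1191 and 1214, with the highest fat sums of that group (205 and 220 CPM), held *P2rx5* at 1.97 and 1.86 CPM, and 1053, with 67.4 CPM, held 3.18 CPM. Relative to the fat sum, no PN was below the lowest control. *P2rx5* made up 0.299 to 0.512% of that sum in controls, 0.303 to 5.83% in slow-growing PNs, and 0.843 to 5.77% in fast-growing PNs. Of the muscle sum, it made up 0.106 to 0.422% in controls, 0.0966 to 23.1% in slow-growing PNs, and 0.154 to 3.41% in fast-growing PNs, with slow-growing PN 1079 below all controls. The library with the highest *P2rx5* among PNs, 1198A, had the lowest muscle sum (28.3 CPM). The part of fat or muscle in the fall was not tested. When the muscle and fat scores were added to the fit of all PNs as covariates, *P2rx5* and *P2rx7* lost their calls (adjusted p = 0.238 and 0.328), while 478 genes were still called. Their log2 fold changes there were -1.06 and 0.91. In fast-growing PNs versus controls, *P2rx5* had a log2 fold change of -2.53 with these covariates and also lost its call (adjusted p = 0.627), as did every other gene called there. Fat sums did not overlap between controls (3686 to 4734 CPM) and PNs (32.6 to 2103 CPM). Fits with these covariates therefore cannot tell fat from group, and a lost call there does not show its cause.

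**Figure D2:**
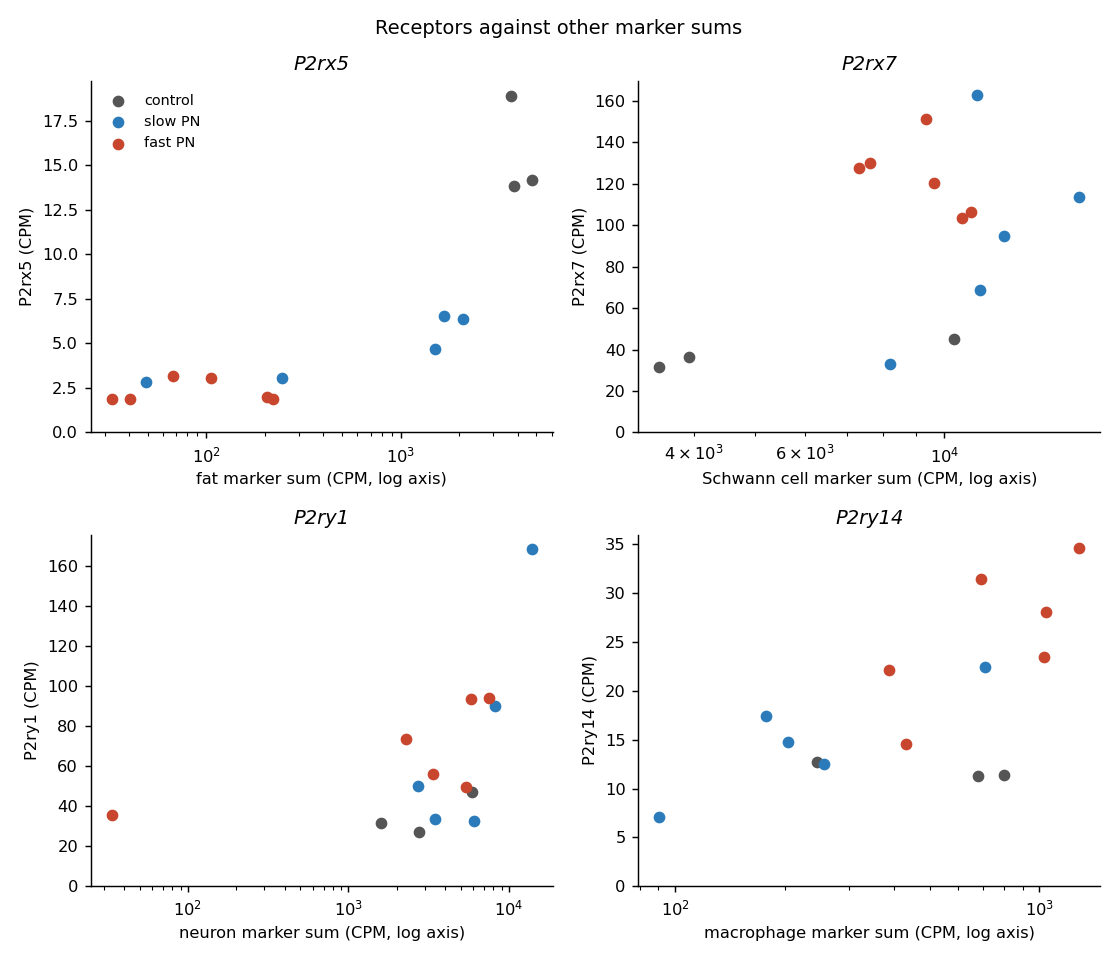
Level of *P2rx5*, *P2rx7*, *P2ry1*, and *P2ry14* (y axes, CPM) against the summed CPM of fat, Schwann cell, neuron, and macrophage markers (x axes, log scale), 1 point per library. *P2rx5* is higher in the controls, which have the highest fat sums, than in any PN. Among the controls, control 4 has the highest *P2rx5* (18.9 CPM) and the lowest fat sum (3686 CPM). *P2ry1* is highest in the slow-growing PN with the highest neuron sum (13860 CPM).

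*P2rx4* encodes an ATP-gated channel of macrophages, microglia, and neurons that is found largely on lysosomes. It was at 25.4, 40.6, and 36.3 CPM in controls and at 20.9, 31.9, 24.6, 23.4, and 25.1 CPM in slow-growing PNs 1079, 1198A, 1202, 1203, and 1206. Fast-growing PNs ranged from 29.5 to 42.3 CPM, with a median of 34.5 CPM. Control and fast-growing groups overlapped, while 4 of 5 slow-growing PNs were below all controls. The log2 fold change was -0.50 in slow-growing PNs versus controls (SE 0.21, adjusted p = 0.153) and 0.48 in fast- versus slow-growing PNs (SE 0.15, adjusted p = 0.0955). In fast-growing PNs versus controls it was -0.03, with a 95% interval from -0.47 to 0.41.

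Of the 9 receptors, *P2ry1*, *P2ry2*, and *P2ry6* couple to calcium release, and none of them passed the edgeR test in any comparison. In fast-growing PNs versus controls, DESeq2 called *P2ry1* and *P2ry2* higher and limma-voom called *P2ry2* higher, where these tools called 36.6% and 29.9% of all genes. *P2ry1* encodes an ADP receptor of neurons, glia, and platelets. It was at 47.2, 27.1, and 31.5 CPM in controls and at 32.5, 49.9, 90.0, 169, and 33.8 CPM in slow-growing PNs 1079, 1198A, 1202, 1203, and 1206. The range in fast-growing PNs was 35.4 to 94.1 CPM, with a median of 64.9 CPM. The groups overlapped, and slow-growing PN 1203 was above all other libraries. The log2 fold change was 0.98 in PNs versus controls (SE 0.47, adjusted p = 0.133), with a 95% interval from -0.01 to 1.98. Slow-growing PN 1203 also had the highest neuron sum, and *P2ry1* was 0.536 to 3.23% of the neuron sum in all libraries but 1. The exception was fast-growing PN 1191, where the neuron markers summed to 33.6 CPM and *P2ry1* was at 35.4 CPM, the lowest of the fast-growing PNs. The part of neurons in these levels was not tested.

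*P2ry2*, a receptor for ATP and UTP, was at 23.8, 10.7, and 16.1 CPM in controls. It was at 25.2, 18.9, 19.7, 17.8, and 38.4 CPM in slow-growing PNs 1079, 1198A, 1202, 1203, and 1206. It ranged from 24.5 to 30.8 CPM in fast-growing PNs, with a median of 25.9 CPM. All 6 fast-growing PNs were above all controls, by a small margin (24.5 against 23.8 CPM). The log2 fold change was 0.60 (SE 0.22, adjusted p = 0.0603). Without control 3, edgeR called *P2ry2* higher in fast-growing PNs (0.91, adjusted p = 0.00857) and in all PNs (0.91, adjusted p = 0.0257, against 0.58 with all libraries). Relative to the Schwann cell markers the groups overlapped, with 0.229 to 0.456% in controls, 0.167 to 0.234% in slow-growing PNs, and 0.232 to 0.405% in fast-growing PNs. On this ratio 4 of 5 slow-growing PNs were below all controls.

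*P2ry6*, a UDP receptor known for its role in phagocytosis by microglia, was at 3.69, 20.3, and 16.1 CPM in controls. It was at 4.02, 13.5, 4.19, 0.824, and 4.24 CPM in slow-growing PNs 1079, 1198A, 1202, 1203, and 1206, the lowest value resting on 9 counts. In fast-growing PNs it ranged from 7.42 to 21.5 CPM, with a median of 17.1 CPM. Control 3 was well below the other controls, 1198A was well above the other slow-growing PNs, and the groups overlapped. The log2 fold change between fast- and slow-growing PNs was 1.504 (SE 0.56, adjusted p = 0.155).

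Of the P2Y receptors that lower cAMP, *P2ry14* was called higher by edgeR in fast-growing PNs than in controls. *P2ry14* encodes the receptor for UDP-glucose and related sugars. It was at 12.7, 11.4, and 11.3 CPM in controls, the narrowest control range of the 9 genes relative to its level. It was at 17.4, 22.4, 12.5, 7.05, and 14.8 CPM in slow-growing PNs 1079, 1198A, 1202, 1203, and 1206. Values in fast-growing PNs ran from 14.5 to 34.6 CPM, with a median of 25.8 CPM. All 6 fast-growing PNs were above all controls, and slow-growing PNs lay on both sides of the control range. *P2ry14* was 2.09-fold higher in fast-growing PNs (log2 fold change 1.06, SE 0.27, adjusted p = 0.0144), a call that was lost without control 4 (adjusted p = 0.0569). With the muscle and fat scores as covariates, a fit in which no gene was called, its log2 fold change was 0.49 (adjusted p = 0.93). The 5 fibroblast markers were also all called higher in this comparison (median log2 fold change 1.43), where 14.8% of all genes were called higher, summing to 1671 to 3161 CPM in controls and 4577 to 9148 CPM in fast-growing PNs, and their part in the rise of *P2ry14* was not tested. In slow-growing PNs the log2 fold change was 0.28 (SE 0.34, adjusted p = 0.589), and between fast- and slow-growing PNs it was 0.79 (SE 0.29, adjusted p = 0.154).

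*P2ry12*, the ADP receptor of platelets that is also a marker of microglia, separated fast- from slow-growing PNs without passing the test. It was at 4.72, 15.1, and 7.19 CPM in controls. It was at 5.70, 13.7, 8.27, 6.14, and 5.78 CPM in slow-growing PNs 1079, 1198A, 1202, 1203, and 1206. In fast-growing PNs it ranged from 13.99 to 22.8 CPM, with a median of 17.1 CPM. All 6 fast-growing PNs were above all 5 slow-growing PNs, with 13.99 CPM against 13.68 CPM at the boundary. *P2ry12* was 2.21-fold higher in fast- than in slow-growing PNs by the fit (log2 fold change 1.15, SE 0.25, adjusted p = 0.0506). In fast-growing PNs versus controls its log2 fold change was 0.89 (SE 0.35, adjusted p = 0.0799 by edgeR), and DESeq2 and limma-voom called it higher. Without control 4 edgeR also called it (1.49, adjusted p = 0.00821). Over the 17 alternative fits the adjusted p of the difference between fast- and slow-growing PNs ran from 0.00133 to 0.362. The 5 platelet and megakaryocyte markers summed to 58.7 to 250 CPM in controls, 10.5 to 61.2 CPM in slow-growing PNs, and 8.98 to 18.8 CPM in fast-growing PNs. The part of platelets in the level of *P2ry12* was not tested.

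*P2ry13*, a further ADP receptor of myeloid cells, was at 5.57, 34.3, and 22.5 CPM in controls. It was at 3.87, 10.9, 4.80, 5.22, and 5.78 CPM in slow-growing PNs 1079, 1198A, 1202, 1203, and 1206. It ranged from 9.09 to 25.4 CPM in fast-growing PNs, with a median of 12.7 CPM. Controls 4 and 5 were above every slow-growing PN, control 3 lay among them, and 3 of 6 fast-growing PNs were above all slow-growing PNs. The log2 fold change was -1.83 in slow-growing PNs versus controls (SE 0.54, adjusted p = 0.0633 by edgeR) and 1.25 in fast- versus slow-growing PNs (SE 0.35, adjusted p = 0.0805). The difference between slow-growing PNs and controls was called in 4 of 14 alternatives, namely DESeq2, 1 fit of all 3 groups, and the fits without control 3 or without 1198A (lowest adjusted p = 0.0114).

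**Figure D3:**
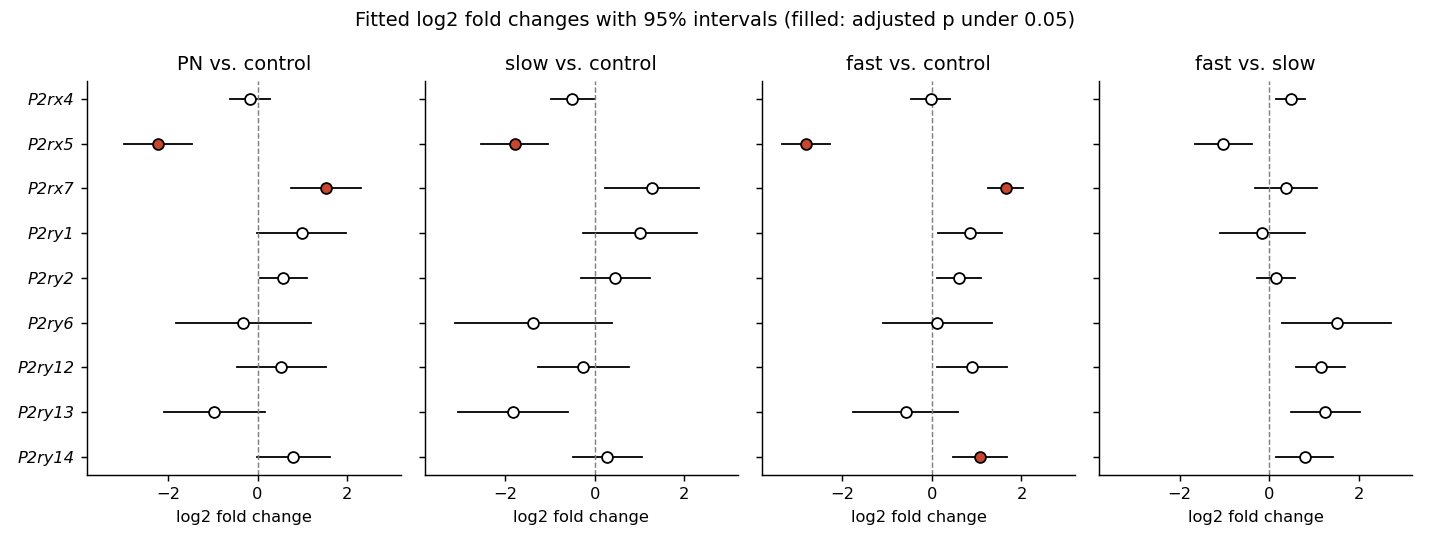
Fitted log2 fold change of each receptor (x axis) with its 95% interval in the 4 comparisons, filled where the adjusted p was under 0.05. *P2rx5* is filled in all 3 comparisons with controls, and no receptor is filled between fast- and slow-growing PNs.

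Counted over the 9 receptors, all of which passed the filter on low counts in each comparison, 2 were called in PNs versus controls (*P2rx7* higher, *P2rx5* lower), where 26.3% of all genes tested were called. In slow-growing PNs versus controls 1 of 9 was called, against 11.3% of all genes, and in fast-growing PNs versus controls 3 of 9, against 31.4%. These shares are near those of all genes, and the 3 comparisons share the control libraries. Their median log2 fold changes were 0.53, -0.25, and 0.60, beside 0.10, 0.04, and 0.02 over all genes. Between fast- and slow-growing PNs, edgeR called 0 of 9, against 1.27% of all genes. At an unadjusted p under 0.05, 6 of 9 passed (*P2rx4*, *P2ry6*, *P2ry12*, *P2ry13*, and *P2ry14* higher in fast-growing PNs, *P2rx5* lower), against 20.4% of all genes. DESeq2 called 3 of 9 in this comparison (*P2rx5*, *P2ry12*, and *P2ry13*), against 10.2% of all genes, and limma-voom called 0. Without slow-growing PN 1198A, edgeR called 4 of 9 (*P2rx4*, *P2ry6*, *P2ry12*, and *P2ry13*), against 7.65% of all genes.

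Macrophage transcripts varied among libraries in the same direction as several receptors. The 15 macrophage markers, among them *Csf1r*, *Cd68*, and the complement genes *C1qa*, *C1qb*, and *C1qc*, summed to 246, 801, and 677 CPM in controls 3, 4, and 5. They summed to 178, 711, 256, 90.6, and 204 CPM in slow-growing PNs 1079, 1198A, 1202, 1203, and 1206, and to 386 to 1289 CPM in fast-growing PNs. Control 3 and slow-growing PN 1198A stood apart from their groups on this sum. Control 3 was also the lowest control for *P2rx4*, *P2ry6*, *P2ry12*, and *P2ry13*, and 1198A the highest slow-growing PN for each of them and for *P2ry14*, *P2rx7*, and *P2rx5*. Of the 15 macrophage markers, 1 was called between fast- and slow-growing PNs, where 1.27% of all genes were called. Their median log2 fold change was 1.75, beside -0.03 over all genes. In this comparison *Lyve1* (-1.14, SE 0.65, adjusted p = 0.356) and *Cd163* (-0.77, SE 0.47, adjusted p = 0.391) had negative values and did not pass. Every other marker of the list had a positive value. In fast-growing PNs versus controls, *Lyve1* was called lower (-2.56, SE 0.78, adjusted p = 0.0324), the only one of the 15. Called higher were 3 of 15, *Cx3cr1* (3.25, SE 0.52, adjusted p = 0.00144), *Trem2* (3.61, SE 0.70, adjusted p = 0.00408), and *Fcgr1* (1.70, SE 0.51, adjusted p = 0.0299). Of all genes, 14.8% were called higher and 16.7% lower there. The 7 microglia-type markers summed to 82.0 to 122 CPM in controls, 70.5 to 197 CPM in slow-growing PNs, and 185 to 405 CPM in fast-growing PNs. No marker of any list was at 0 in all libraries of a group.

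**Figure D4:**
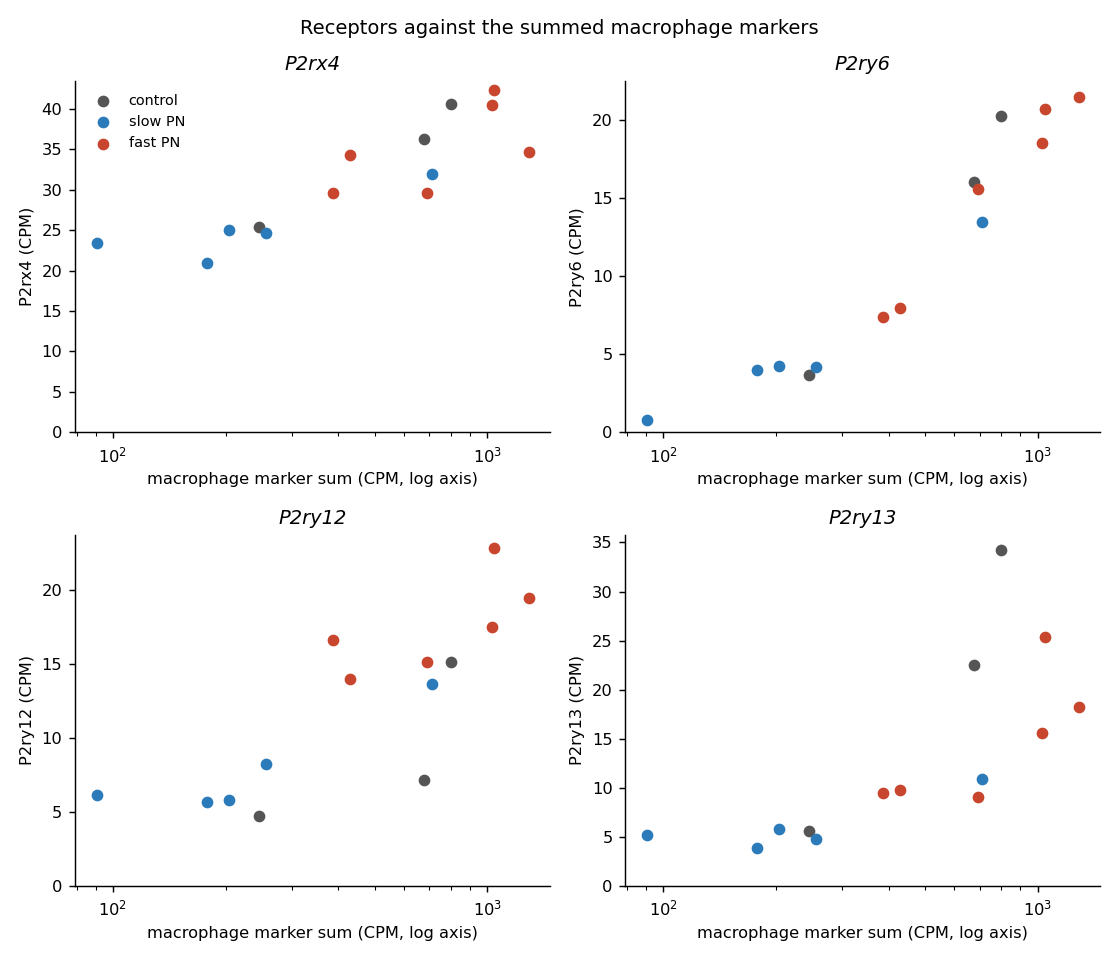
Level of *P2rx4*, *P2ry6*, *P2ry12*, and *P2ry13* (y axes, CPM) against the summed CPM of 15 macrophage markers (x axes, log scale), 1 point per library. Slow-growing PN 1203, with the lowest macrophage sum (90.6 CPM), has the lowest *P2ry6* (0.824 CPM).

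Relative to the macrophage sum, slow- and fast-growing PNs overlapped for each of these receptors. *P2ry6* was at 0.91 to 2.26% of the macrophage sum in slow-growing PNs, 1.67 to 2.25% in fast-growing PNs, and 1.5 to 2.53% in controls. *P2ry12* was 1.92 to 6.77% in slow-growing PNs and 1.51 to 4.3% in fast-growing PNs, with 1.06 to 1.92% in controls, so that slow-growing PNs were at or above the highest control. *P2ry13* was 1.53 to 5.76% and 1.31 to 2.46%, with 2.27 to 4.28% in controls. *P2rx4* was 4.49 to 25.9% and 2.69 to 7.98%, with 5.07 to 10.3% in controls. *P2ry14* was 3.15 to 9.77% and 2.28 to 5.74%, with 1.42 to 5.17% in controls. The part of macrophage number in the differences between the groups was not tested.

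The genes most like each receptor were taken as the 3 with the highest Pearson r of log2(CPM + 1) over the 14 libraries, among 16283 genes, as a description of shared pattern that depth and tissue makeup also shape. For *P2ry6* these were *Tnfaip8l2* (r = 0.988), the complement gene *C1qc* (r = 0.986), and *Pld4* (r = 0.984). For *P2ry13* they were *Rnpep* (r = 0.951), the myeloid adaptor gene *Tyrobp* (r = 0.944), and *P2rx4* (r = 0.942). *P2rx4* had *P2ry13* as its closest gene, followed by *Rnpep* (r = 0.934) and *Emp3* (r = 0.932), and *P2ry12* had *2010204K13Rik* (r = 0.948), *Lair1* (r = 0.945), and *Klk8* (r = 0.943). Each of these correlations remained at 0.92 or above over the 11 PNs alone. *P2ry12* and *P2ry13*, 5.4 kb apart, had r = 0.685 with each other over 14 libraries and 0.922 over the 11 PNs. Over the PNs, *P2rx4*, on another chromosome, had 0.956 with *P2ry13* and 0.91 with *P2ry12*. The neighbours *P2ry2* and *P2ry6* had 0.269 there, and *P2rx4* and *P2rx7* had 0.573.

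The remaining receptors had other neighbours in pattern. *P2rx7* was closest to *Stard5* (r = 0.987), *Il34* (r = 0.979), which encodes a ligand of the macrophage receptor CSF1R, and *Sipa1l2* (r = 0.978). *P2rx5* was closest to the pentose phosphate enzyme gene *Tkt* (r = 0.982), the kinase gene *Mknk2* (r = 0.978), and the mitochondrial pyruvate carrier gene *Mpc2* (r = 0.977). *P2ry14* was closest to *Tbc1d8b* (r = 0.951), *Limd1* (r = 0.951), and *Bicc1* (r = 0.948). *P2ry1* was closest to *Gpld1* (r = 0.957), *Ppp1r2* (r = 0.955), and *Rab1* (r = 0.951). *P2ry2* had the weakest matches, *Emp2* (r = 0.905), *Gpsm1* (r = 0.905), and *Shroom3* (r = 0.903). Over the 11 PNs alone, these matches of *P2ry2* were at 0.86, 0.767, and 0.817, and those of *P2rx5* at 0.932, 0.905, and 0.926. For *P2rx7*, *P2ry14*, and *P2ry1*, the values over the PNs were 0.947 to 0.988.

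The other genes of purinergic signaling were followed in 6 lists, to be read against the 31.4% of all genes called in fast-growing PNs versus controls. Among 7 other P2X and P2Y receptors, *P2ry4*, a nucleotide receptor that couples to calcium release, was called higher in PNs, and *P2rx1*, an ATP-gated channel of platelets and smooth muscle, was called lower in fast-growing PNs. *P2ry4* had 1, 3, and 1 counts in controls and 10 to 29 counts in each PN. The edgeR log2 fold change of *P2ry4* in PNs versus controls was 3.10 (SE 0.47, adjusted p = 0.000319). Pooled over libraries, its level was 9.25 times as high in PNs, with a 95% exact counting interval from 3.9 to 28.8. That interval covers counting error and not the spread between libraries. *P2rx1* was at 6.09, 1.65, and 5.73 CPM in controls and at most 0.907 CPM in fast-growing PNs (log2 fold change -3.40, SE 0.65, adjusted p = 0.00381), and slow-growing PN 1206 held 8.68 CPM. Of 4 adenosine receptors, *Adora2b* was called higher in fast-growing PNs than in controls (1.402, SE 0.30, adjusted p = 0.00631). With the muscle and fat scores as covariates, a fit in which no gene was called, its log2 fold change was 0.25 (adjusted p = 0.962).

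Of 12 enzymes and transporters of extracellular nucleotides and adenosine that were tested, 3 were called higher and 0 lower in PNs versus controls, and the same 3 genes were called in fast-growing PNs. The background was 26.3% and 31.4% of all genes, so these shares of the list are no larger than those of all genes. *Entpd2*, which converts ATP to ADP, was at 33.3, 21.4, and 19.8 CPM in controls and 56.5 to 127 CPM in fast-growing PNs (log2 fold change 1.65, SE 0.29, adjusted p = 0.00244). *Nt5e*, the CD73 enzyme that makes adenosine from AMP, was at 34.3, 24.7, and 23.9 CPM in controls and 72.2 to 126 CPM in fast-growing PNs (1.68, SE 0.21, adjusted p = 0.000392). *Enpp1*, which cleaves ATP to AMP, was at 28.7 to 38.5 CPM in controls and 68.0 to 78.5 CPM in fast-growing PNs (1.11, SE 0.13, adjusted p = 0.000281). In fast-growing PNs these 3 calls held with each of the 9 libraries left out in turn. In all PNs they held in 13, 12, and 7 of 14 such fits, respectively, and none held without control 5. None of the 12 was called in slow-growing PNs versus controls (1 at an unadjusted p under 0.05) or in fast- versus slow-growing PNs (3 at an unadjusted p under 0.05). Of all genes, 11.3% and 1.27% were called in these comparisons, respectively, and 4765 of 15714 and 20.4% had an unadjusted p under 0.05. With the muscle and fat scores as covariates no gene at all was called in the fit of fast-growing PNs, and *Entpd2* turned to -0.64 there. *Nt5e* was at 1.16 and *Enpp1* at 1.19 in that fit. In the fit of all PNs with these covariates, *Entpd2* was at 0.34, *Nt5e* turned to -0.12, and *Enpp1* was at 0.22.

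**Figure D5:**
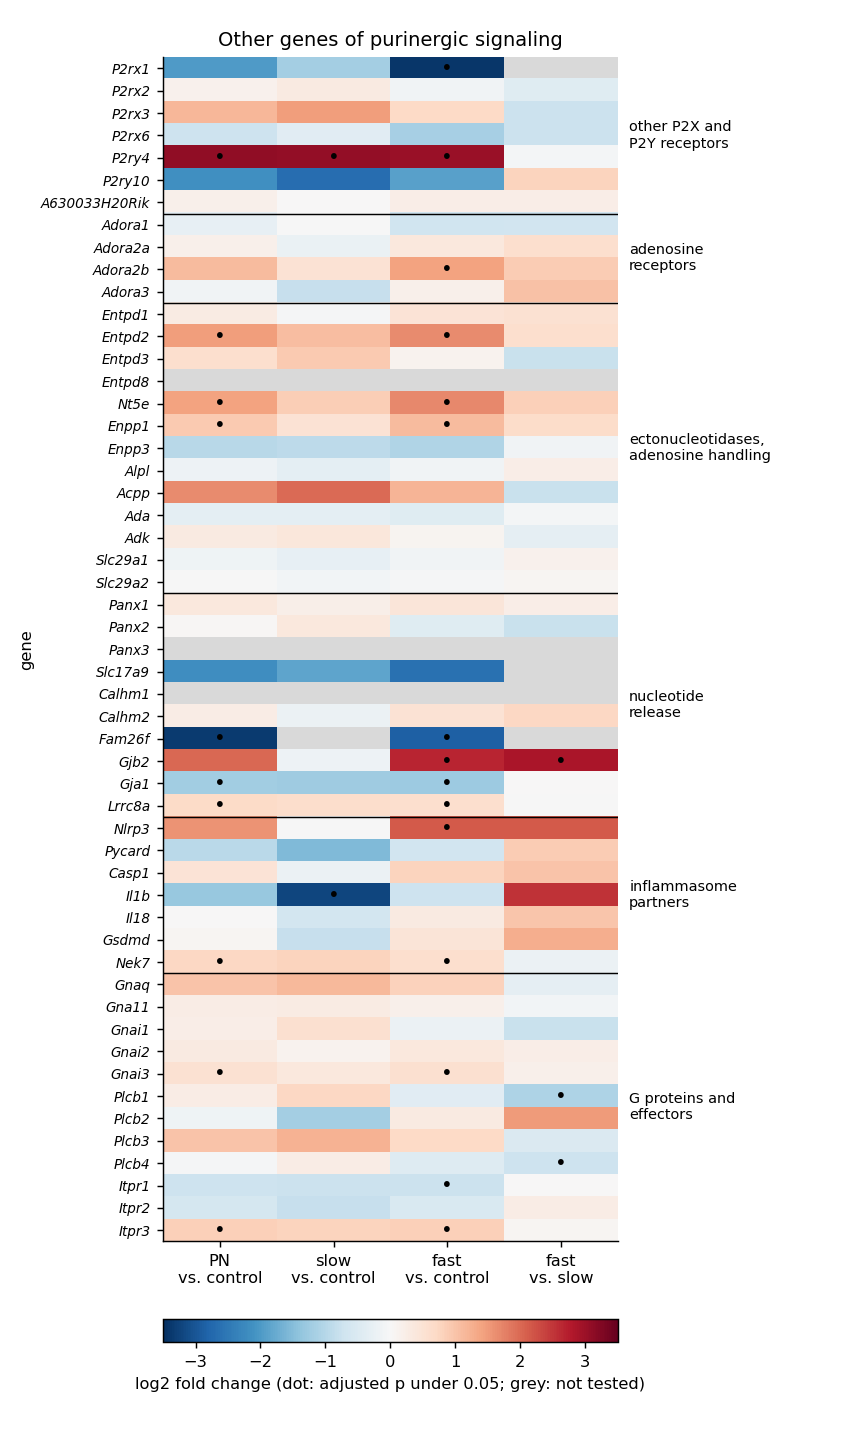
Fitted log2 fold change (color) of 53 other genes of purinergic signaling in the 4 comparisons (columns), grouped in 6 lists, with a dot where the adjusted p was under 0.05 and grey where the gene was not tested. The ectonucleotidase genes *Entpd2*, *Nt5e*, and *Enpp1* carry dots in PNs and in fast-growing PNs versus controls.

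Of 8 nucleotide release genes tested in fast-growing PNs versus controls, 2 were called higher and 2 lower, where 31.4% of all genes were called. *Gjb2*, a connexin, was at 1.28 to 2.66 CPM in controls, 0.675 to 3.06 CPM in slow-growing PNs, and 3.69 to 20.4 CPM in fast-growing PNs, and it was also called between fast- and slow-growing PNs (2.86, SE 0.54, adjusted p = 0.0449). That call held in 3 of 11 fits that left out 1 library. The call of *Gjb2* in fast-growing PNs versus controls held in 7 of 9 such fits (adjusted p up to 0.0547). *Gja1*, the main connexin of satellite glia, was lower in fast-growing PNs (-1.26, SE 0.20, adjusted p = 0.00133), and *Lrrc8a*, a volume-regulated anion channel subunit, was higher (0.60, SE 0.17, adjusted p = 0.0237). Without control 4 or 5 the call of *Lrrc8a* was lost (adjusted p up to 0.101). *Fam26f* was lower (-2.85, SE 0.97, adjusted p = 0.0496), a call that held in 2 of 9 fits that left out 1 library.

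Of 7 inflammasome partners of *P2rx7*, *Nlrp3*, the sensor, and *Nek7*, its binding partner, were called higher in fast-growing PNs than in controls, where 31.4% of all genes were called. *Nlrp3* was at 0.343 to 2.08 CPM in controls and 2.52 to 9.68 CPM in fast-growing PNs (2.14, SE 0.64, adjusted p = 0.0306), and *Nek7* at 138 to 194 CPM and 217 to 281 CPM (0.57, SE 0.14, adjusted p = 0.0127). The call of *Nlrp3* was lost without control 3 or 4 (adjusted p up to 0.0898), and that of *Nek7* without control 4 or 5 (adjusted p up to 0.0703). *Il1b*, the cytokine the inflammasome matures, was called lower in slow-growing PNs than in controls (-3.22, SE 0.86, adjusted p = 0.0463), a call that held in 1 of 8 fits that left out 1 library. With the muscle and fat scores as covariates, neither was called. *Nlrp3* turned to -0.18 in fast-growing PNs and *Il1b* to 0.0076 in slow-growing PNs. Between fast- and slow-growing PNs none of the 7 was called, while 6 had an unadjusted p under 0.05, against 20.4% of all genes. The median log2 fold change of the 7 was 0.997, beside 1.75 for the 15 macrophage markers, whose part in it was not tested.

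Among 12 G proteins and effectors of P2Y receptors, *Gnai3* (0.55, SE 0.11, adjusted p = 0.00544), an inhibitory G protein subunit, and *Itpr3* (0.84, SE 0.20, adjusted p = 0.012), a calcium release channel, were called higher in fast-growing PNs than in controls. The call of *Itpr3* held in 8 of 9 fits that left out 1 library (adjusted p up to 0.0585). *Itpr1* was called lower (-0.76, SE 0.22, adjusted p = 0.0284), in 4 of 9 fits that left out 1 library. These 3 of 12 stand beside 31.4% of all genes. The phospholipase genes *Plcb1* (-1.09, SE 0.23, adjusted p = 0.0484) and *Plcb4* (-0.72, SE 0.14, adjusted p = 0.0449) were called lower in fast- than in slow-growing PNs, where 1.27% of all genes were called. *Plcb4* was at 38.8 to 61.3 CPM in fast-growing PNs and 68.2 to 91.1 CPM in slow-growing PNs, which did not overlap. These calls held in 3 and 4 of 11 fits that left out 1 library, respectively.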

How the data were processed

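Bulk RNA-seq libraries of 3 control DRGs, 5 slow-growing PNs, and 6 fast-growing PNs were analysed. Per the submitters' processing notes and the methods, RNA was amplified (Ovation v2 kit) before library making, and the authors called bases with CASAVA 1.4, aligned reads to mm10 with TopHat2 2.0.9, and deposited whole-number counts per gene from featureCounts 1.5.2, without normalization. A deposited table of normalized values was not used here. Counts were fitted in R 4.3.3 with edgeR 4.0.16 (filterByExpr, TMM, quasi-likelihood test) on the libraries of each comparison, and genes were called at a Benjamini-Hochberg adjusted p under 0.05 over all genes tested. Levels are CPM after TMM over all 14 libraries, and SE is the log2 fold change over the square root of F. The fits were tested on simulated data.

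All 9 receptors were named, with the called genes of 6 pathway lists and the 3 genes most alike in pattern. Marker genes, *Med12l*, *Nf1*, and *Rn45s* were named outside this rule. Of these, *Lyve1*, *Cd163*, *Cx3cr1*, *Trem2*, and *Fcgr1* were named after their values had been seen. The receptors, lists, and marker sets were chosen with earlier results of these data known, so no list was tested as a set. Levels per kb used exon lengths of GENCODE M21. Of the list genes, *Adgre1*, *Calhm6*, and *P2ry10b* were found under older symbols, and *Ly6g* was not found. Alternatives were RLE size factors, no filter, DESeq2 1.42.0, limma-voom (limma 3.58.1), 1 fit of all 3 groups, muscle and fat scores as covariates, and leaving out each library. The same fits for pathway genes and *Nf1* were added after their values had been seen. Neither sex nor batch per library is given in the sources used here. Control DRGs and PNs differ in tissue as well as genotype, which cannot be told apart. Because reads of amplified RNA can copy 1 molecule, floors and counting intervals reflect counting error alone. Plots used Python 3.11.15 and matplotlib 3.10.9.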

Additional observations from a re-analysis of the deposited data

How the results depend on the processing

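Of 594 fold changes of the 9 receptors refitted under the alternatives, 545 kept their direction and their side of the threshold, 9 lost a call, 26 gained one, and 14 changed sign, none of the last with an adjusted p under 0.507. The number of receptors called moved as follows. With muscle and fat scores as covariates it was 0 in each comparison with controls, and 0 of all genes were called in the fits of slow- or fast-growing PNs alone. Because fat sums of controls and PNs did not overlap, these fits cannot tell fat from group. Versus controls, DESeq2 called 3 in slow-growing and 6 in fast-growing PNs, where it called 22.5% and 36.6% of all genes, and it called 3 in fast- versus slow-growing PNs (10.2% of all genes). Limma-voom called 5 in fast-growing PNs versus controls, and 1 fit of all 3 groups called 3 in slow-growing PNs versus controls. RLE size factors and the absence of a filter moved no count by more than 1.5 times. Leaving out 1 library gave 1 to 3 receptors called in PNs versus controls (1 without control 5, and 3 without control 3 or slow-growing PN 1203), 0 to 2 in slow-growing PNs (0 without control 4, and 2 without control 3, slow-growing PN 1198A, or slow-growing PN 1203), 3 to 4 in fast-growing PNs (*P2ry2* gained without control 3, *P2ry12* without control 4, and *P2ry1* without fast-growing PN 1191), and 0 to 4 in fast- versus slow-growing PNs (4 without 1198A, and 1 without slow-growing PN 1203 or fast-growing PN 1071).

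The changes of sign were near 0 or imprecise. With the covariates, the log2 fold change in PNs versus controls was -0.87 for *P2ry12* and -0.27 for *P2ry14*, and in fast-growing PNs versus controls it was -1.80 for *P2ry6*. With 1 library left out, it ranged from -0.76 to 0.11 for *P2ry6* in PNs and from -0.56 to 0.36 for *P2ry12* in slow-growing PNs, positive only without control 4. In fast-growing PNs versus controls, *P2rx4* was 0.0269 in 1 fit of all 3 groups. With 1 library left out it ranged from -0.22 to 0.12 for *P2rx4* and from -0.33 to 0.55 for *P2ry6*. In fast- versus slow-growing PNs, *P2ry1* was 0.0564 by limma-voom and -0.32 to 0.38 with 1 library left out. Among called pathway genes, only the covariates changed a sign, with -0.12 for *Nt5e* in PNs, 0.0076 for *Il1b* in slow-growing PNs, and -0.64 for *Entpd2*, -1.36 for *Gjb2*, and -0.18 for *Nlrp3* in fast-growing PNs. The cause of these moves was not tested. Over all genes, the 1769 calls in slow-growing PNs versus controls became 3529 by DESeq2, and the 196 calls in fast- versus slow-growing PNs became 1570 by DESeq2, 34 by limma-voom, and 2 to 1194 with 1 library left out. The number of controls (n = 3) limits every comparison with them.

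No receptor had a library that stood apart from its group of slow- or fast-growing PNs by Dixon's test of the gap to the nearest library, and a pseudocount of 0.5 changed none. With library totals alone as the scale, slow-growing PN 1198A passed for *P2ry13* (gap over range 0.734).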
